A study of Homo sapiens with 8 samples.

Results

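MALAT1 and NEAT1, long RNAs of nuclear bodies, and 8 non-coding host transcripts of small nucleolar RNAs (GAS5, SNHG1, SNHG5, SNHG6, SNHG7, SNHG8, SNHG12 and SNHG15) were followed in human mammary epithelial cells treated with ginkgolic acid, known as an inhibitor of SUMO conjugation. The members were chosen by name, and each was taken from every row whose gene field, split at commas, held its symbol. Of the 10 members, 9 had a row in each table, against 54250 named rows in the MCF10A table and 54207 in the NOTCH1 table. SNHG8 had no row under its symbol and is not analysed here as a host.

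The cells were MCF10A, a non-tumorigenic breast epithelial line, and MCF10A that the labels describe as carrying an overexpressed NOTCH1 intracellular domain, with no word on the vector or promoter in the labels. Both were grown in the same medium with horse serum, insulin, cholera toxin, epidermal growth factor and hydrocortisone, and were treated for 3 days with DMSO or with ginkgolic acid at 30 µM. Total RNA came from 8 samples, 2 in each of the 4 groups. Each table gives a row a single FPKM per group (fragments scaled by transcript length and by library size). Replicate error and depth therefore cannot be given for any value, and the differences are described without a test.

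Small nucleolar RNAs (snoRNAs) guide the chemical modification of ribosomal RNA. Those with a C box and a D box direct ribose methylation, and those with an H box and an ACA box direct the formation of pseudouridine. Most are cut out of the introns of a host gene, and the spliced exons of GAS5 and of many SNHG genes encode no long protein and are degraded quickly. MALAT1 is concentrated in nuclear speckles, which store splicing factors, and NEAT1 is the scaffold of paraspeckles, bodies that retain RNA and RNA-binding proteins in the nucleus.

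Since 7 host rows are joined with snoRNAs they hold, the sequences of 6 snoRNAs of the members are shown first. They were taken from GENCODE release 29 on GRCh38, whereas the tables use hg19. Capitals mark the C box (TGATGA, first match) and the D box (CTGA, last match) in the C/D box family, and the last ACA in the H/ACA family. All were searched on the transcribed strand only, and the short D box and ACA strings can occur elsewhere in a transcript. SNORD27 lies in SNHG1 (chr11:62855012-62855083, minus strand) and SNORD50B in SNHG5 (chr6:85677589-85677658, minus strand). SNORD99 (chr1:28578749-28578822, minus strand) and SNORA61 (chr1:28579764-28579893, minus strand) lie in SNHG12 and are shown because that host carries both families, SNORD99 on a row of its own. SNORA9 lies in SNHG15 (chr7:44985378-44985510, minus strand) and SNORA24 in SNHG8 (chr4:118279190-118279320, plus strand).
SNORD27: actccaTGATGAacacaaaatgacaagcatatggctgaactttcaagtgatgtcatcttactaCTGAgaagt
SNORD50B: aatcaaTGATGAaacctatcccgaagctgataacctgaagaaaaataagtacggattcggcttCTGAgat
SNORD99: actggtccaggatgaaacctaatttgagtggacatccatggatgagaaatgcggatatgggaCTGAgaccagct
SNORA61: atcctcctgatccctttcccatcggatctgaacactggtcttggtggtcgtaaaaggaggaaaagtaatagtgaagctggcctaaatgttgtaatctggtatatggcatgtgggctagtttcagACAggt
SNORA9: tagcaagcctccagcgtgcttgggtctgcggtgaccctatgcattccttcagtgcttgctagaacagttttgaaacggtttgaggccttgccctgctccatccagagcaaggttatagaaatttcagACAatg
SNORA24: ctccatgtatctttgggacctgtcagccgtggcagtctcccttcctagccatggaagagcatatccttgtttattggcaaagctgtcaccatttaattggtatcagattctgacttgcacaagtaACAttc

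The families differ in length, which matters for a value that is divided by length. The 3 C/D box snoRNAs shown have 72, 70 and 74 bases, and the 3 H/ACA box snoRNAs have 130, 133 and 131. Over GENCODE release 29 the median was 82 bases for 288 C/D box and 134 bases for 149 H/ACA box transcripts. The longest annotated transcript of SNHG1 has 2768 bases and that of GAS5 1698. Of the 288 C/D box transcripts, 66.7% had TGATGA within the first 20 bases and 90.6% had CTGA ending within 10 bases of the end, and 89.3% of H/ACA transcripts had ACA ending within 3 bases of the end. In SNORD99 these exact letters of the C box were not found.

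The label of the second line was checked on NOTCH1, which was at 5.03 FPKM in its DMSO group and at 11.4 FPKM in MCF10A with DMSO. The levels under DMSO go against the label, whereas under ginkgolic acid NOTCH1 was at 12.4 FPKM in that line and 6.18 FPKM in MCF10A. The row covers the whole gene rather than the intracellular domain, each table has its own normalization, and the line is called NOTCH1-labelled here. All 10 epithelial markers reached 1 FPKM in both tables, at 20.5 to 4504 FPKM in MCF10A and 15.0 to 1362 FPKM in NOTCH1-labelled cells with DMSO. Their sum was 8229 FPKM with DMSO and 2641 with ginkgolic acid in MCF10A, where KRT5 and KRT17, both on joined rows, made up most of it, and 2848 and 3597 in NOTCH1-labelled cells. No blood or endothelial marker exceeded 6.15 FPKM in any group, whereas a fibroblast marker reached 63.4 FPKM in NOTCH1-labelled cells. The summed fibroblast markers were at 26.8 FPKM with DMSO and 19.9 with ginkgolic acid in MCF10A, and at 72.3 and 41.8 in NOTCH1-labelled cells. The part of either marker group in the results was not tested.

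In both lines MALAT1 and NEAT1 were higher with ginkgolic acid and the 4 hosts on rows joined with C/D box snoRNAs were lower. SNHG12 also holds a C/D box snoRNA, on a separate row, and is grouped by the snoRNAs joined with it. Of 9 members in MCF10A, 5 were at least 2-fold lower and 0 were higher by that much, where 15.6% and 24.1% of 19788 named rows were. The NOTCH1-labelled line had 5 of 9 members at least 2-fold lower and 2 higher by that much, where 19.1% and 18.6% of 21695 named rows were. The median log2 ratio of the 9 members was −1.26 in MCF10A and −1.71 in NOTCH1-labelled cells, beside 0.06 and 0.05 over all named rows. These counts rest on the joined rows of the hosts. All 7 hosts are on such rows, so without them only MALAT1 and NEAT1 remain. That no member was then 2-fold lower allows no conclusion on the hosts.

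**Figure D1:**
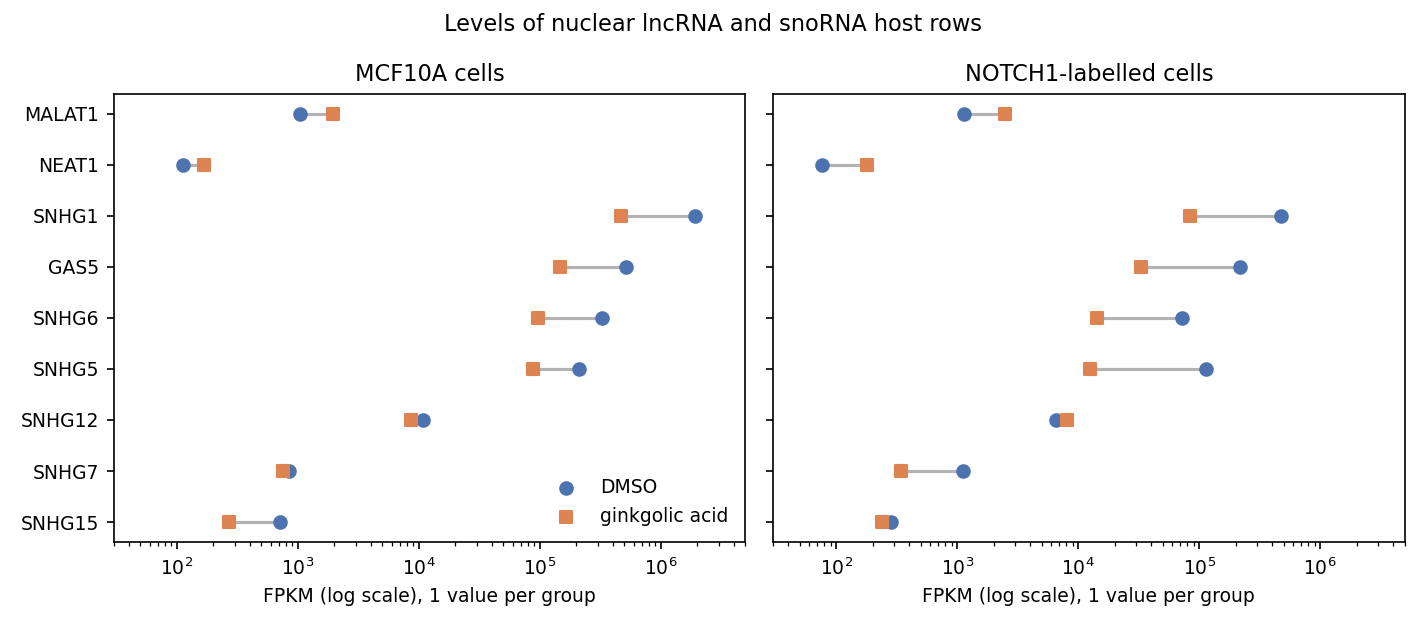
FPKM on a log axis of the 9 members that had a row, in MCF10A (left) and NOTCH1-labelled cells (right), with circles for DMSO and squares for ginkgolic acid, 1 value per group. MALAT1 and NEAT1 lie to the right with ginkgolic acid in both panels, and SNHG1, GAS5, SNHG6 and SNHG5 to the left.

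MALAT1 had a row of its own on chromosome 11 from 65265202 to 65274023 (hg19) in the MCF10A table. It was at 1969 FPKM under ginkgolic acid against 1039 FPKM under DMSO in MCF10A, a log2 ratio of 0.92. In NOTCH1-labelled cells MALAT1 was at 2469 and 1140 FPKM, a log2 ratio of 1.11. Both lines thus had the higher MALAT1 level with ginkgolic acid, by 1.89-fold and 2.17-fold. The MALAT1 ratio lay above 74.3% of named rows in MCF10A and above 83.7% in NOTCH1-labelled cells. Over long non-coding rows that hold no small RNA the median log2 ratio was 0.89 in MCF10A (616 rows, 44.8% at least 2-fold higher). In NOTCH1-labelled cells it was −0.25 (709 rows, 19.2%). The MALAT1 ratio in MCF10A was thus close to the median of these rows. Their levels were far lower, with medians in MCF10A of 1.23 FPKM with DMSO and 1.92 with ginkgolic acid. The side of the 2-fold line on which the MALAT1 ratio lies depends on the scaling. With the median log2 ratio of each table removed (−0.11 in MCF10A and 0.13 in NOTCH1-labelled cells), MALAT1 was at 1.03 and 0.98. GENCODE release 29 places no snoRNA, small Cajal body RNA (scaRNA), small nuclear RNA (snRNA) or miRNA in MALAT1.

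NEAT1 lies upstream of MALAT1 on the same chromosome, from 65190238 to 65213011 (hg19), and its row covers the short and the long isoform together. It was at 167 FPKM under ginkgolic acid against 113 FPKM under DMSO in MCF10A, a log2 ratio of 0.56. In NOTCH1-labelled cells NEAT1 was at 181 and 75.9 FPKM, a log2 ratio of 1.25 that was 0.86 with upper quartile scaling. The NEAT1 ratio lay above 65.6% of named rows in MCF10A and above 86.2% in NOTCH1-labelled cells, so neither value stands at the edge of its table. MIR612, a miRNA, is annotated within NEAT1.

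The genes around the pair gave a mixed picture. Of 8 measured rows among the neighbours of NEAT1 and MALAT1, 0 passed 2-fold upward and 2 downward in MCF10A. Their median log2 ratio of 0.18 was −0.02 with a minimum of 5 FPKM. Among all named rows, 24.1% passed upward and 15.6% downward. Those 2 rows were FRMD8, at 1.08 FPKM under ginkgolic acid against 9.25 under DMSO, and EHBP1L1, at 5.29 and 17.6. In NOTCH1-labelled cells 1 row passed 2-fold upward and 0 downward (median 0.48), where 18.6% and 19.1% of named rows did. That row was DPF2, a chromatin factor gene, at 19.5 and 9.30 FPKM.

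The comparison of patterns covered 5010 unjoined genes that reached 10 FPKM in each of the 4 groups. Those closest to MALAT1 in the pair of log2 ratios were MYO1D, SPATS2 and FAF1. Their distances were 0.03, 0.05 and 0.05 on the log2 scale. Closest to NEAT1 were MTMR2, BOD1 and SAV1, at 0.03, 0.03 and 0.04. The likeness covers 2 ratios only.

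Proteins that share the bodies of MALAT1 and NEAT1 were mostly within 2-fold. Of 14 paraspeckle protein genes, 0 passed 2-fold upward and 1 downward in MCF10A, and 2 and 1 in NOTCH1-labelled cells, with medians of −0.34 and 0.01. The second median was −0.12 once the median log2 ratio of the table was removed. Among all named rows, 24.1% passed upward and 15.6% downward in MCF10A, and 18.6% and 19.1% in NOTCH1-labelled cells. CPSF6, an mRNA cleavage factor subunit, was at 36.8 FPKM under ginkgolic acid against 87.0 under DMSO in MCF10A. NUDT21, the partner of CPSF6, had log2 ratios of 0.79 in MCF10A and 1.01 in NOTCH1-labelled cells.

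Of 21 genes of nuclear speckles and SR splicing factors, 1 passed 2-fold upward and 2 downward in MCF10A, and 3 and 1 in NOTCH1-labelled cells. The medians were −0.23 and 0.23, and the second was −0.16 with upper quartile scaling. Among all named rows, 24.1% passed upward and 15.6% downward in MCF10A, and 18.6% and 19.1% in NOTCH1-labelled cells. CLK1, a kinase that phosphorylates SR proteins, was at 280 FPKM under ginkgolic acid against 87.7 under DMSO in MCF10A and at 318 and 95.4 in NOTCH1-labelled cells. CLK1 thus had log2 ratios of 1.68 and 1.73, the largest absolute value of this list in each line. SRSF2, a founding SR protein, was lower in MCF10A, at 16.7 and 39.1 FPKM.

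SNHG1, whose row on chromosome 11 from 62619459 to 62623386 (hg19) also names 8 snoRNAs of the C/D box family, had the second highest value of all named rows with DMSO in both tables. It was at 468376 FPKM under ginkgolic acid against 1900000 FPKM under DMSO in MCF10A, a log2 ratio of −2.02. In NOTCH1-labelled cells SNHG1 was at 84485 and 473938 FPKM, a log2 ratio of −2.49. Values of this size were deposited for rows that join a host with RNAs as short as SNORD27, printed above, and the tables do not separate exons of the host from the small RNAs.

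GAS5, known as a growth arrest transcript that can bind the glucocorticoid receptor, shares its row with 7 C/D box snoRNAs. The row is listed on chromosome 1 from 173831289 to 173866494 (hg19), an interval also listed for ZBTB37 and thus not that of GAS5 alone. GAS5 was at 146834 FPKM under ginkgolic acid against 513335 FPKM under DMSO in MCF10A, 3.50-fold lower. In NOTCH1-labelled cells GAS5 was at 33016 and 217650 FPKM, 6.59-fold lower. SNORD78, listed on a row of its own at that locus, was at 8745 FPKM with DMSO in MCF10A and 598 FPKM in NOTCH1-labelled cells and was listed at 0 with ginkgolic acid in both. ZBTB37, a protein-coding gene on the other strand, was at 2.92 and 1.28 FPKM in MCF10A and 2.68 and 3.23 in NOTCH1-labelled cells.

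SNHG6 is joined with SNORD87 on a row listed on chromosome 8 from 67782983 to 67838633 (hg19), an interval also listed for MCMDC2. SNHG6 was at 96985 FPKM under ginkgolic acid against 325250 FPKM under DMSO in MCF10A. In NOTCH1-labelled cells SNHG6 was at 14373 and 71720 FPKM, with log2 ratios of −1.75 and −2.32 in the 2 lines. SNHG5, joined with SNORD50A and SNORD50B on chromosome 6 from 86386724 to 86388451 (hg19), was at 88546 and 212628 FPKM in MCF10A. In NOTCH1-labelled cells SNHG5 was at 12446 and 114802 FPKM, 9.22-fold lower. All 4 hosts joined with C/D box snoRNAs were thus at least 2-fold lower in both lines, with median log2 ratios of −1.78 and −2.60. SNHG12, which holds SNORD99 of that family on a separate row, is not among the 4.

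**Figure D2:**
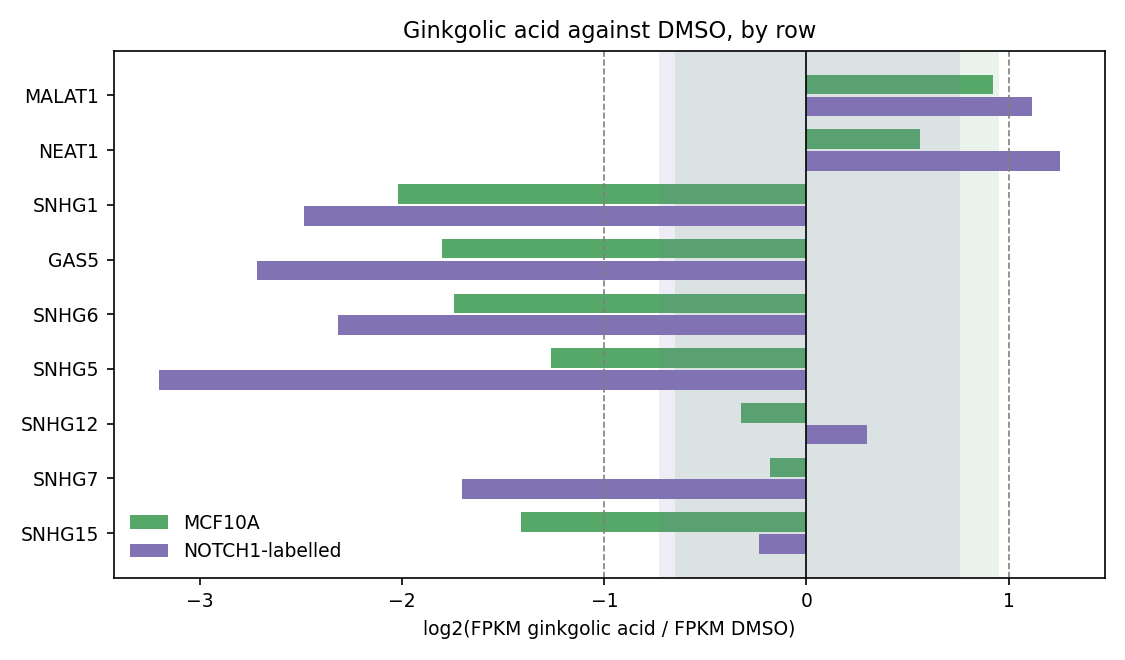
Log2 ratio of FPKM with ginkgolic acid over DMSO for the 9 members, as green bars for MCF10A and purple bars for NOTCH1-labelled cells. Dashed lines mark 2-fold, and the shaded bands hold the middle 50% of named rows of each table. The bars of SNHG1, GAS5, SNHG6 and SNHG5 pass the lower dashed line in both lines, and those of SNHG12, SNHG7 and SNHG15 do not in both.

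The 3 hosts joined with H/ACA box snoRNAs had no common pattern. SNHG12 is joined with 3 snoRNAs of that family on a row listed on chromosome 1 from 28879596 to 28909495 (hg19). SNORD99 and TRNAU1AP are listed at the same interval, which is thus not that of the host alone. SNHG12 was at 8603 FPKM under ginkgolic acid against 10779 FPKM under DMSO in MCF10A. In NOTCH1-labelled cells SNHG12 was at 8109 and 6590 FPKM. The log2 ratios of −0.33 and 0.30 differ in sign, and the second was −0.09 with upper quartile scaling.

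At the SNHG12 locus SNORD99, of the C/D box family, has a row of its own beside the joined row of its host. That joined row mixes exons of the host with H/ACA box snoRNAs, so the 2 rows do not compare the families themselves. SNORD99 was at 79782 FPKM under ginkgolic acid against 167777 FPKM under DMSO in MCF10A. In NOTCH1-labelled cells it was at 28623 and 121321 FPKM. The log2 ratios of SNORD99, −1.07 and −2.08, were thus lower than those of the joined row of its host in both lines. TRNAU1AP, the protein-coding gene on the other strand, had log2 ratios of −0.02 and 0.83. Whether counting used the strand is not given in the sources used here.

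SNHG15, known as a short-lived transcript, is joined with SNORA9 on chromosome 7 from 45022574 to 45026593 (hg19). It was at 268 FPKM under ginkgolic acid against 714 FPKM under DMSO in MCF10A, a log2 ratio of −1.41. In NOTCH1-labelled cells SNHG15 was at 241 and 283 FPKM, a log2 ratio of −0.23. SNHG7, joined with SNORA17 and SNORA43 on chromosome 9 from 139607021 to 139622636 (hg19), had the opposite order of the lines. That interval is also listed for FAM69B. SNHG7 was at 750 and 848 FPKM in MCF10A, a log2 ratio of −0.18 that was 0.00 with upper quartile scaling, and at 345 and 1126 FPKM in NOTCH1-labelled cells, a log2 ratio of −1.71.

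SNHG8 is annotated as the host of SNORA24, printed above. At that locus on chromosome 4, 2 rows carried the symbol SNORA24 and had opposite signs. One was at 40319 FPKM under ginkgolic acid against 196748 FPKM under DMSO in MCF10A and at 6287 and 38738 FPKM in NOTCH1-labelled cells. The other was at 133 and 85.6 FPKM in MCF10A and at 216 and 152 FPKM in NOTCH1-labelled cells. Which transcripts these rows cover is not given, and neither is assigned to SNHG8. Rows named SNORA24 also stood on chromosomes 15 and 3, at 67.0 and 342 FPKM in MCF10A for the first and listed at 0 for the second. They were looked up after other results were seen.

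Rows of single snoRNAs, outside the members, were then described by family. Of 60 rows of C/D box snoRNAs in MCF10A, 40 passed 2-fold downward and 5 upward (median log2 ratio −1.45). Of 65 rows of H/ACA box snoRNAs, 18 passed 2-fold downward and 10 upward (median −0.15). Among all named rows in MCF10A, 15.6% passed downward and 24.1% upward. In NOTCH1-labelled cells the counts were 25 lower and 2 higher of 41 C/D box rows, with a median of −1.36. They were 27 lower and 10 higher of 66 H/ACA box rows, with a median of −0.58. Among all named rows there, 19.1% passed downward and 18.6% upward. Among rows that reached 100 FPKM in either group, the H/ACA box counts were 11 lower and 1 higher of 41 in MCF10A (median −0.38) and 19 and 3 of 39 in NOTCH1-labelled cells (median −0.96). The C/D box counts among such rows were 39 and 5 of 55 (median −1.48) and 25 and 2 of 39 (median −1.51). The snRNAs, spliceosomal RNAs with genes of their own, had 15 lower and 3 higher of 33 rows in MCF10A (median −0.82) and 11 and 3 of 31 in NOTCH1-labelled cells (median −0.41). The scaRNAs, which guide the modification of spliceosomal RNAs, had medians of 0.05 over 18 rows and −0.36 over 17 rows. The members' snoRNAs were counted here only where they have a row of their own, a symbol may have more than 1 row, and SNORD99 and SNORA24 are among these rows.

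**Figure D3:**
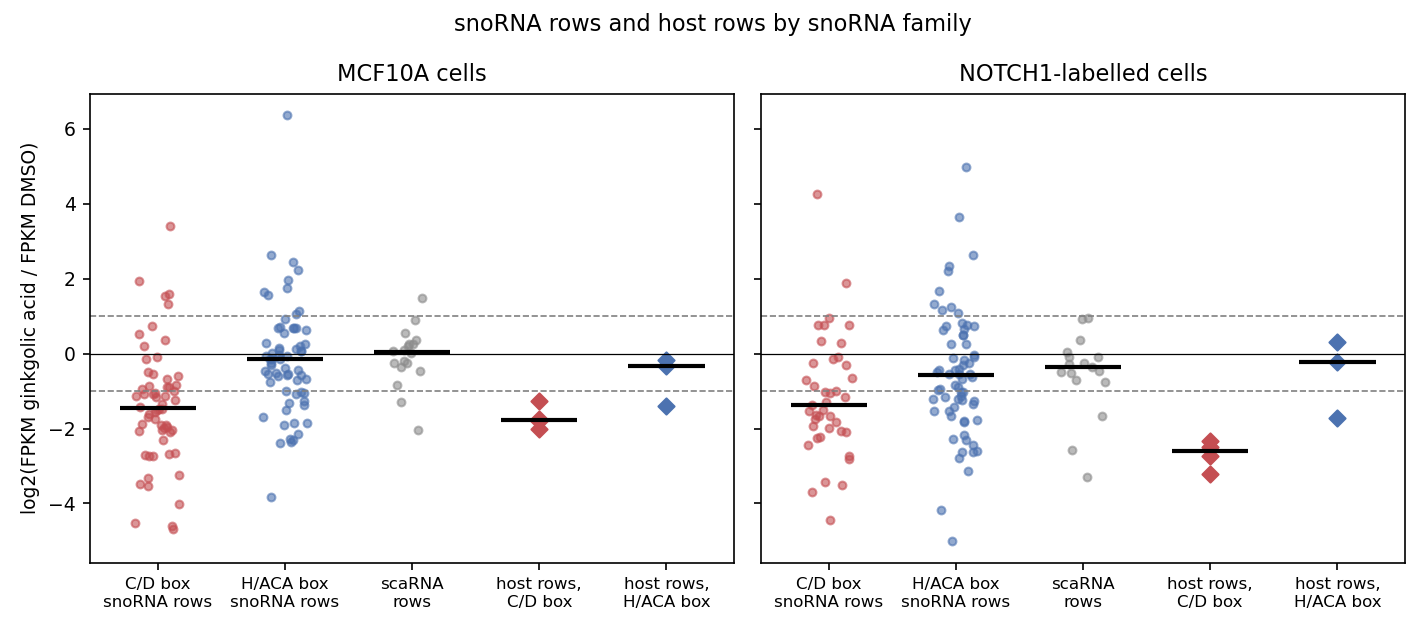
Log2 ratio of FPKM with ginkgolic acid over DMSO for rows of single snoRNAs and scaRNAs (circles) and for the host members (diamonds), in MCF10A (left) and NOTCH1-labelled cells (right). Black bars are medians and dashed lines mark 2-fold. The C/D box rows and the hosts joined with C/D box snoRNAs lie mostly below −1, with medians of −1.45 and −1.78 in MCF10A.

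Length moved with family. The median annotated length was 90 bases for the C/D box rows and 134 for the H/ACA box rows in MCF10A, and 92 and 134 in NOTCH1-labelled cells, where 86.2% to 95.0% of these rows had a length. Over all rows of a table, unnamed ones included, the ratio also changed with the width of the locus. That width is the interval listed for a row and not the length of its RNA. SNORD99, of 74 bases, is listed from 28879596 to 28909495 and so is not among the narrow rows. Rows of up to 100 bases had median log2 ratios of −1.57 in MCF10A (541 rows, 511 of them unnamed) and −1.46 in NOTCH1-labelled cells (247 rows, 223 unnamed). Wider rows of up to 200 bases had medians of 1.51 and −1.52, those wider still and up to 500 bases 1.70 and −0.82, and those above 5000 and up to 100000 bases −0.10 and 0.07. Rows with narrow listed loci thus had opposite signs in the 2 lines except at the smallest width. The part of length and of the share of short fragments in the libraries in the host values was not tested.

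**Figure D4:**
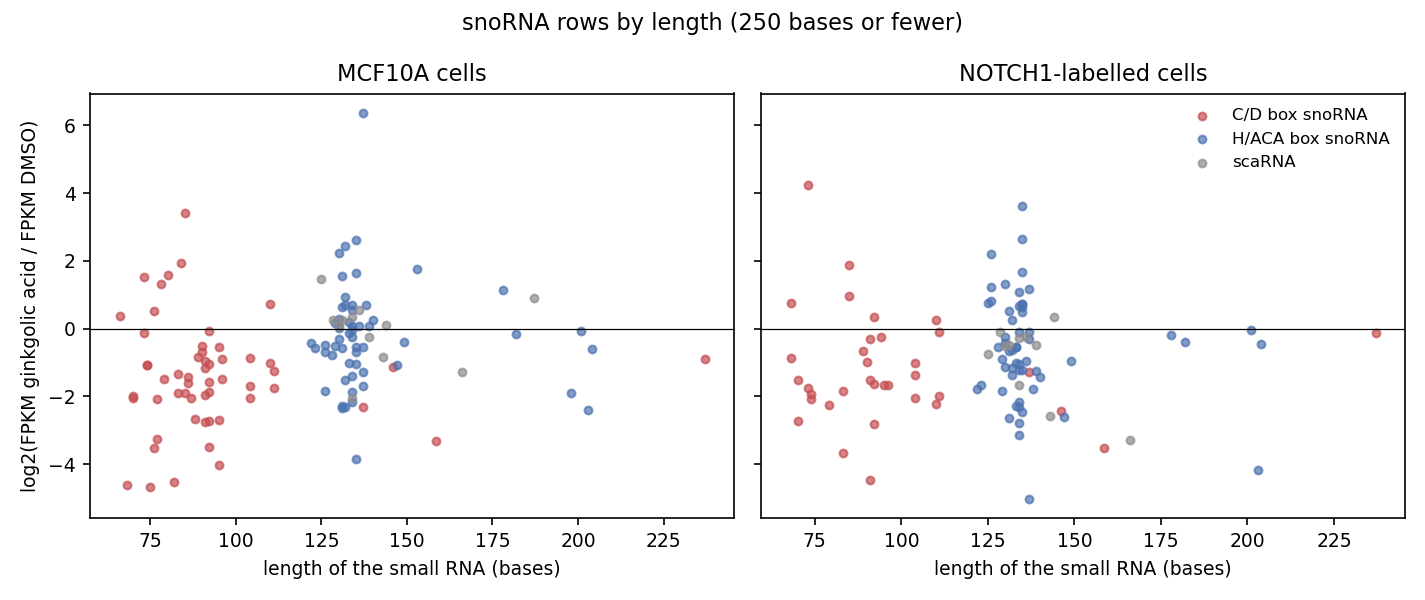
Annotated length in bases against the log2 ratio of FPKM with ginkgolic acid over DMSO for rows of single C/D box snoRNAs (red), H/ACA box snoRNAs (blue) and scaRNAs (grey) of 250 bases or fewer. The families occupy different lengths, around medians of 90 and 134 bases in MCF10A, and most rows of a family share a narrow range of lengths.

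Other non-coding snoRNA hosts gave ratios in both directions. Of 7 measured rows, 2 passed 2-fold upward and 3 downward in MCF10A, and 1 and 4 in NOTCH1-labelled cells, with medians of −0.31 and −1.40. The second was 0.43 over the 5 rows that are not joined. Among all named rows, 24.1% passed upward and 15.6% downward in MCF10A, and 18.6% and 19.1% in NOTCH1-labelled cells. SNHG16 was at 89773 FPKM under ginkgolic acid against 192917 FPKM under DMSO in MCF10A and at 28707 and 127495 in NOTCH1-labelled cells. SNHG11, joined with SNORA39, had log2 ratios of −1.23 and −2.64. EPB41L4A-AS1 lay in the other direction, at 613 against 226 FPKM in MCF10A and 387 against 289 FPKM in NOTCH1-labelled cells. SNHG9 did so at low levels, at 5.40 and 0.937 FPKM in MCF10A and 10.7 and 4.60 in NOTCH1-labelled cells. SNHG10 had log2 ratios of −3.06 in MCF10A and 0.98 in NOTCH1-labelled cells.

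Of 21 protein-coding snoRNA hosts outside the ribosomal proteins, 0 passed 2-fold upward and 4 downward in each line, with medians of −0.46 and −0.28. The share of named rows that passed downward was 15.6% in MCF10A and 19.1% in NOTCH1-labelled cells, so the count of 4 is near that of all rows. EIF4G2, a translation initiation factor gene, was at 7409 FPKM under ginkgolic acid against 27856 under DMSO in MCF10A and at 2252 and 7301 in NOTCH1-labelled cells. HSPA8, which encodes a constitutive heat shock chaperone, had log2 ratios of −0.56 and −2.12. PPAN, a gene of ribosome assembly on a joined row, had log2 ratios of −1.66 and −1.97.

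Genes for proteins of the snoRNA particles and their assembly were mostly lower in MCF10A (14 of 16) and mostly higher in NOTCH1-labelled cells (12 of 16). Of 16 such genes, 3 passed 2-fold downward in MCF10A and 2 in NOTCH1-labelled cells, and 0 passed it upward in either. Among all named rows, 15.6% and 19.1% passed downward, so the downward counts are near or below that share. Upward, 24.1% and 18.6% of named rows passed. The medians of the 16 genes were −0.43 and 0.60. Over the 11 genes for which no small RNA was found by symbol they were −0.40 and 0.63. NOP58, a core protein of C/D box particles whose gene is itself a snoRNA host, was at 1068 FPKM under ginkgolic acid against 5199 under DMSO in MCF10A. In NOTCH1-labelled cells NOP58 was at 117 against 1211 FPKM. NOP56, its partner and also a snoRNA host, had log2 ratios of −0.87 and −1.90. DKC1, the pseudouridine synthase of H/ACA particles, also holds a small RNA and had log2 ratios of 0.15 and 0.60. FBL, the methyltransferase of C/D box particles, holds none and had log2 ratios of −0.33 and 0.68. NOLC1, a nucleolar phosphoprotein that binds snoRNA particles and whose gene holds none, was at 24.2 against 89.3 FPKM in MCF10A.

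Spliced host RNAs are known substrates of nonsense-mediated decay. Of 10 factors of that pathway, 0 passed 2-fold in either direction in MCF10A (median 0.54), where 24.1% of named rows passed upward and 15.6% downward. In NOTCH1-labelled cells 4 passed it upward and 0 downward (median 0.79), where 18.6% and 19.1% of named rows did. SMG8, among these 4, is on a row joined with PRR11. SMG9, a partner of the kinase of the pathway, was at 6.42 FPKM under ginkgolic acid against 1.01 under DMSO in those cells.

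**Figure D5:**
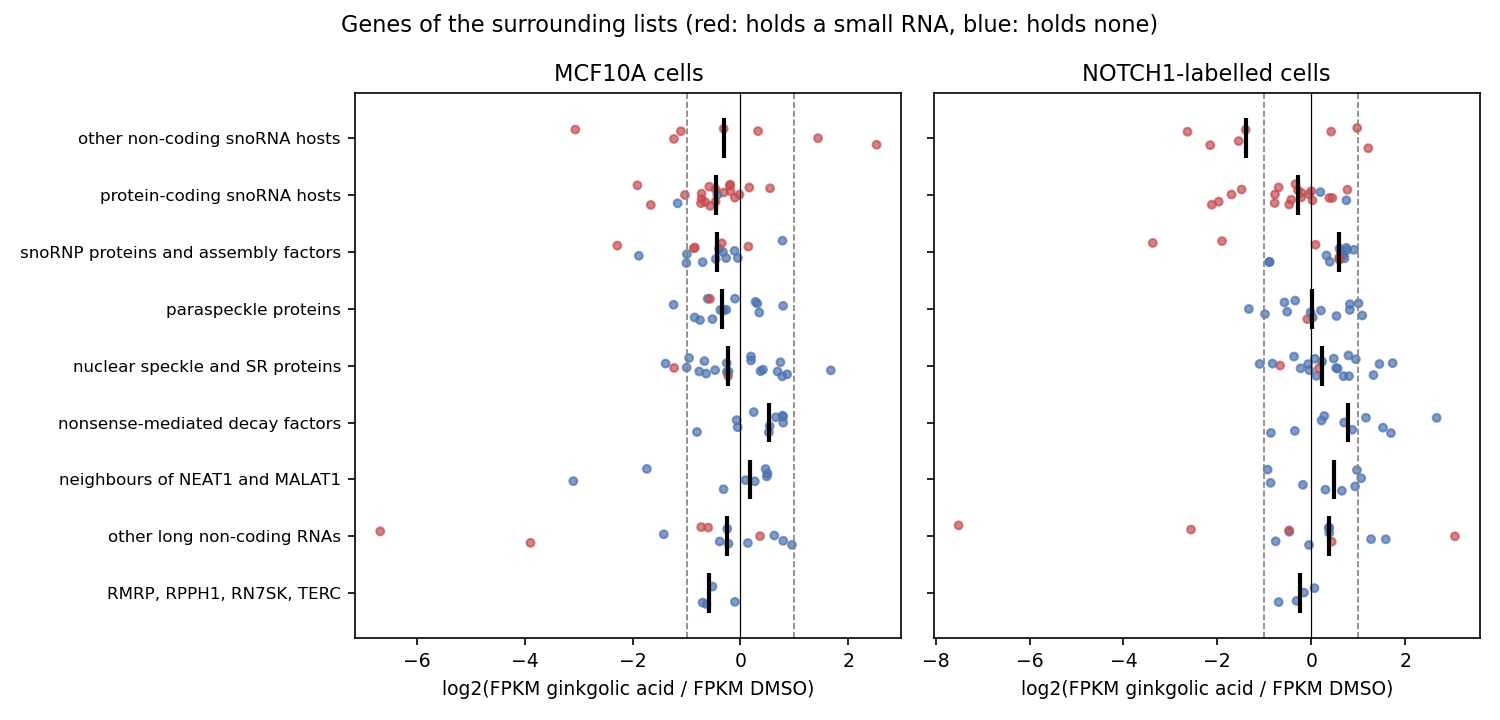
Log2 ratio of FPKM with ginkgolic acid over DMSO for the genes of 9 lists (1 row each, black bars for medians), in MCF10A (left) and NOTCH1-labelled cells (right). Red points hold an annotated small RNA and blue points hold none, and dashed lines mark 2-fold. In the row of snoRNP proteins the lowest red point is NOP58, at −2.28 and −3.37.

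The responses of the lines were set against each other by subtracting the log2 ratio in MCF10A from that in NOTCH1-labelled cells. Of 9 members, 2 differed by at least 2-fold towards a lower ratio in NOTCH1-labelled cells and 1 towards a higher one, where 22.2% and 21.5% of 16652 rows did (median over those rows 0.22). SNHG5 differed by −1.94, SNHG7 by −1.53 and SNHG15 by 1.18, which was 0.94 with the table medians removed. GAS5, at −0.92, and SNHG1, at −0.47, lay within 2-fold, but were at −1.49 and −1.04 with upper quartile scaling. With the table medians removed GAS5 was at −1.15 and SNHG1 at −0.71. MALAT1 differed by 0.19, which turns to −0.05 with the table medians removed, and NEAT1 by 0.69.

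Levels across the tables carry an unknown factor, since each table was normalized separately. With DMSO, 4 of 9 members were at least 2-fold lower in NOTCH1-labelled cells than in MCF10A and 0 were higher by that much, where 8.83% and 19.6% of 16652 rows were (median 0.11). They were SNHG6, SNHG1, SNHG15 and GAS5, with log2 ratios of −2.18, −2.00, −1.34 and −1.24. With ginkgolic acid, 5 of 9 were at least 2-fold lower and 0 higher by that much, where 10.0% and 15.2% of rows were (median 0.26). SNHG5 had the lowest of these, at −2.83. MALAT1 had log2 ratios of 0.13 with DMSO and 0.33 with ginkgolic acid, the second of which was −0.03 with the table medians removed, and NEAT1 −0.58 and 0.12, the second −0.24 in the same way. In RNA from whole cultures, fewer cells of a type and less RNA per cell cannot be told apart.

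Since all 4 hosts joined with C/D box snoRNAs were lower in both lines, the starts of the members' genes were examined in RefSeq promoters (GRCh38.p14). These ran from 250 bases before to 50 after the start and were found for 7 of the 10 members. NEAT1, SNHG15 and SNHG6, which is one of the 4 hosts, were not searched, and SNHG8 is among the 7. Many snoRNA hosts begin with a terminal pyrimidine tract, here taken as a C at the first transcribed base followed by 4 pyrimidines. It was found in SNHG5 and SNHG12, 2 of the 7 genes, and in 4.07% of 35116 promoters. Only the annotated first base was tested, so a tract at another start would be missed. GAS5 had 0 pyrimidines directly at the start used, and CCTTTTTT lay within the 50 bases after it. The windows from 10 bases before to 50 after these starts are shown, with the pyrimidines from the first transcribed base in capitals, for SNHG5 at chr6:85678684-85678743 and for SNHG12 at chr1:28581824-28581883, both on the minus strand.
SNHG5 start: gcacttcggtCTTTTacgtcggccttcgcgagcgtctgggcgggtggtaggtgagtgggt
SNHG12 start: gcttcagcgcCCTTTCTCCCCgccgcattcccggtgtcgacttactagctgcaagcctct
These 2 hosts had unlike ratios, −1.26 and −0.33 in MCF10A and −3.21 and 0.30 in NOTCH1-labelled cells. On both strands, CCAAT was found in GAS5 and SNHG5 and in 34.6% of promoters, TATAAA in MALAT1, SNHG1 and SNHG7 and in 11.5%, and CACGTG in SNHG7 and in 7.26%. TGACGTCA (1.85% of promoters) and TGATGNAAT (0.991%) were found in none of the 7. TGACGTCA and CACGTG read the same on both strands, and no motif of this search contains another.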

How the data were processed

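Per the labels' protocols, an RNeasy kit served for extraction and ScriptSeq Complete Gold for the libraries. The submitters' processing notes name the build GRCh37 (hg19) and, as tools, Cuffdiff and Cufflinks (both 2.1.1), Bowtie2 2.1.0 and TopHat2 2.0.8b. The authors deposited 2 tables of FPKM values, 1 per line, with 1 value per row and group, per the file headers. The sources used here do not give the annotation, the settings or how samples were combined. Without values per sample there was no test, and differences were sorted by size at 2-fold (log2 ratio of 1 in either direction, no pseudocount). This sorting was checked on simulated data without noise, which covers the arithmetic of the rule and not the error of the values.

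A row counted with at least 1 FPKM in either group and above 0 in both. Among named rows that reached 1 FPKM in the other group, 3148 were at 0 with DMSO and 812 with ginkgolic acid in MCF10A. In NOTCH1-labelled cells these numbers were 1381 and 2616. Such rows, SNORD78 among them, are in none of the counts past 2-fold. A row held a small RNA if its symbols named one or GENCODE release 29 places one in the gene on its strand. Older symbols can be missed. The members and lists were chosen with earlier results of these data known. All members were named, with up to 3 genes per list by absolute ratio and the 3 nearest genes of MALAT1 and NEAT1, and some results are not reported here. Genes named beyond this rule (among them FBL and DKC1) were picked with their values in view, as were the counts by snoRNA family and locus width. The results for other listed long non-coding RNAs and for RMRP, RPPH1, RN7SK and TERC stand in the closing section. Alternatives were a pseudocount of 1 FPKM, a minimum of 5 FPKM or none, removal of the median ratio, summed rows, joined rows left out, rows with small RNAs left out and, added after seeing the data, upper quartile scaling. Python 3.11.15, numpy 2.4.6, pandas 2.3.3 and matplotlib 3.10.9 were used.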

Additional observations from a re-analysis of the deposited data

How the results depend on the processing

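A pseudocount of 1 FPKM, no minimum, a minimum of 5 FPKM and summed rows left every count of members past 2-fold within 1.5 times its value. With the median log2 ratio removed, the members at least 2-fold higher with ginkgolic acid became 1 in MCF10A and 1 in NOTCH1-labelled cells. Those with a response at least 2-fold higher in NOTCH1-labelled cells became 0, and those with a response at least 2-fold lower there became 3. With upper quartile scaling, chosen after seeing the data, these counts were 1, 0, 0 and 5. Without joined rows only MALAT1 and NEAT1 remain, and the counts at least 2-fold lower were 0 in both lines, 0 for the difference of responses in either direction, and 0 between lines with DMSO and with ginkgolic acid. Without rows that hold a small RNA only MALAT1 remains, these counts were also 0, and 1 member was at least 2-fold higher in NOTCH1-labelled cells. Both alternatives leave out all 7 hosts, so these counts reflect only which members remain and allow no conclusion on the host values. The median of other non-coding snoRNA hosts in NOTCH1-labelled cells was 0.43 without joined rows, over 5 rows. Of 427 other alternative values, 399 kept their sign and side of 2-fold. No paired analysis was possible because the tables hold 1 value per group, and leaving out a sample could not be run for the same reason. Depth is unknown, so its effect on low values such as that of SNHG9 could not be judged.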

Other observations

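Other long non-coding RNAs of the list went both ways. Of 13 measured rows, 0 passed 2-fold upward and 3 downward in MCF10A, and 3 and 2 in NOTCH1-labelled cells, with medians of −0.24 and 0.37. Among all named rows, 24.1% passed upward and 15.6% downward in MCF10A, and 18.6% and 19.1% in NOTCH1-labelled cells. MIR17HG, the host of a miRNA cluster, shares its row with 6 miRNAs and was at 3.36 FPKM under ginkgolic acid against 345 under DMSO in MCF10A and at 3.13 and 571 in NOTCH1-labelled cells. MIR22HG, also joined with its miRNA, was at 3.30 and 49.1 FPKM and at 7.18 and 42.3. LINC00657, now called NORAD, which binds Pumilio proteins, was at 58.1 and 156 FPKM in MCF10A. LINC00657 had a log2 ratio of −0.76 in NOTCH1-labelled cells. No small RNA was found under this older symbol, which the search by symbol can miss. H19, joined with MIR675, was at 42.1 FPKM under ginkgolic acid against 5.04 under DMSO in NOTCH1-labelled cells and at 0.841 and 1.39 in MCF10A.

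The structural RNAs RMRP, RPPH1, RN7SK and TERC, which have genes of their own, were within 2-fold in both lines, unlike many rows of snRNAs, with medians of −0.58 and −0.23. RMRP, the RNA of a ribosomal RNA processing enzyme, was at 24374 FPKM under ginkgolic acid against 26174 under DMSO in MCF10A and at 29754 and 33117 in NOTCH1-labelled cells. RN7SK, which holds a transcription elongation factor inactive, was at 1858 and 2665 FPKM and at 945 and 1529.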
